A study of Mus musculus with 4 samples.

Results

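The genes described here encode the machinery of oxidative phosphorylation: the nuclear-encoded subunits of respiratory chain complexes I to IV, the electron carrier cytochrome c and the subunits of ATP synthase (complex V). They were chosen by the gene name printed on the array, with names starting with Nduf and a subunit letter and number, Cox4 to Cox8, Uqcr or Atp5, together with Sdha, Sdhb, Sdhc, Sdhd, Cyc1 and Cycs. The rule found 83 genes on 115 probes, of 27745 gene names on 41174 probes in all. By name, 36 genes belonged to complex I, 4 to complex II, 8 to complex III, 18 to complex IV and 16 to complex V, and Cycs stood alone. Of the 83, 4 match the naming pattern but encode no subunit (Ndufa12l, Cox4nb, Cox7a2l and Atp5s), and 6 are isoforms of complex IV subunits known from particular tissues (Cox4i2, Cox6a2, Cox6b2, Cox7a1, Cox8b and Cox8c). Cox4nb and Atp5s are now named Emc8 and Dmac2l in RefSeq, and Uqcr and Atp5f1 are now Uqcr11 and Atp5pb.

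In oxidative phosphorylation, complexes I and II pass electrons from NADH and succinate to ubiquinone, complex III passes them to cytochrome c, and complex IV passes them to oxygen. Complexes I, III and IV pump protons across the inner mitochondrial membrane, and ATP synthase uses the gradient to make ATP. Most subunits are encoded in the nucleus, while a few at the heart of complexes I, III, IV and V are encoded in mitochondrial DNA. Regulatory T cells (Treg), which restrain immune responses, are known to rely on oxidative metabolism, whereas activated conventional T cells raise glycolysis.

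The series measured mRNA in CD4 T cells of Balb/C mice, from spleen and lymph nodes, on 1-colour Agilent arrays, with 1 array for each of 4 groups. Naive T cells (CD4+CD25-CD62Lhi) and natural Treg (CD4+CD25+) were freshly isolated and not transduced. In the other 2 groups, Treg enriched on CD25 with magnetic beads received a lentivirus with a GFP reporter and a hairpin RNA, against Eos in the group labelled si-Eos and against Renilla luciferase in the control labelled si-RL. These cells stayed for 60 h in medium with human IL-2 and were then sorted for GFP, so hairpin libraries and fresh Treg differ in transduction, culture and sorting together, which cannot be told apart. The labels do not say how many mice gave each sample. The series title asks whether Eos, the zinc-finger protein encoded by Ikzf4, takes part in silencing by Foxp3, the transcription factor that marks Treg.

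The targeted gene went against the hairpin labels. Ikzf4 read higher in the si-Eos-labelled library than in the si-RL-labelled library on all 3 of its probes, by 0.93, 1.96 and 1.19 on the log2 scale. Foxp3 signals of naive T cells and Treg were 64.4 and 1778, and those of the si-Eos-labelled and si-RL-labelled libraries were 2644 and 110. Every direction between the hairpin libraries therefore holds for the libraries as labelled, and would turn if the labels were exchanged. The 5 Treg markers (Foxp3, Il2ra, Ctla4, Ikzf2 and Ikzf4) summed to 3.67, 56.4, 74.9 and 10.8 times the array's 75th percentile in naive T, Treg, si-Eos and si-RL, and 4 naive T cell markers (Ccr7, Il7r, Lef1 and Tcf7) to 147, 45.2, 47.7 and 118. All 5 general T cell markers were above background on every array. Between 64.0% and 68.3% of probes were well above background on each array, and the 75th percentile of the signal lay between 262 and 392.

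A level below is the log2 signal of a gene's brightest probe minus the array's 75th percentile, so a level of 0 equals that percentile. A difference is 1 level minus another, and a gene was counted as apart where it reached 2-fold. There are no replicates, so no test was possible and each difference compares 2 libraries, not 2 conditions. The ± is the scanner software's error of both spots combined, whose median over the members was 0.20. In such bulk samples, fewer cells of a type and less RNA per cell cannot be told apart. Of the 83 genes, 81 were well above background on all 4 arrays, and they alone enter the counts. Cox8b (signals of 3.21 to 6.70) and Cox8c (1.81 to 2.30), isoforms known from muscle and testis, were not well above background on any array.

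The promoters of genes whose levels stood apart in the results are shown first, since nuclear control of these subunits is known to run through a few factors: NRF1, the ETS-family factor GABP, YY1 and CREB. Promoter sequences were taken from RefSeq (GRCm38.p6), whose table held 66 of the 83 genes. Each line gives the 250 bases before the start of transcription, 5′ to 3′ on the gene's strand. Capitals mark the NRF1 core GCATGCGC, the cyclic AMP response element TGACGTCA and the CCAAT box, each on either strand.
Cycs (chr6:50566570-50566819, minus strand): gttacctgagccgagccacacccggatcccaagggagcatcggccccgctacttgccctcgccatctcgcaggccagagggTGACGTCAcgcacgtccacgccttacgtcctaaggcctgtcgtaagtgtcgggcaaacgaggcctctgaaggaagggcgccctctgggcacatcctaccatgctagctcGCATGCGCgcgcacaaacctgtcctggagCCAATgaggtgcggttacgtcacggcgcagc
Atp5b (chr10:128083057-128083306, plus strand): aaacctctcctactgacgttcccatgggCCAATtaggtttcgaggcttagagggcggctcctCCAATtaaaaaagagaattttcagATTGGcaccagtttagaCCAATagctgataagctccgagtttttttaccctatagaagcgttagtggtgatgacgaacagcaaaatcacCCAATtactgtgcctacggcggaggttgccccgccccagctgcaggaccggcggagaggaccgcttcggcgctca
Ndufb5 (chr3:32736813-32737062, plus strand): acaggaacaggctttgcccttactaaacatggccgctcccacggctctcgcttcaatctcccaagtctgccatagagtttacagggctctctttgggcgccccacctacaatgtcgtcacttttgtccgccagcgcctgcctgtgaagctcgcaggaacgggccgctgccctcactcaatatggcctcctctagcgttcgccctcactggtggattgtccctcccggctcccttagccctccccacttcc
Cox7a1 (chr7:30183921-30184170, plus strand): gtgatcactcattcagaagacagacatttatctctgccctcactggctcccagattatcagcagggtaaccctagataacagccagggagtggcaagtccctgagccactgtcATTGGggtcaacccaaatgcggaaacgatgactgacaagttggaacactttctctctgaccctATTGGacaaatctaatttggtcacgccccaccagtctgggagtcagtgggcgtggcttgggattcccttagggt
The Cycs window holds all 3 of these motifs, the Atp5b window holds only CCAAT boxes (5 of them), and the Cox7a1 window holds 2. The Ndufb5 window holds none of the 5 motifs searched, which says only that these letters are not in that window.

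Motif shares among the members were read against all 27025 genes of the table, over the same window of 250 bases before to 50 after the start and on both strands. The NRF1 core was in 11 of 66 member promoters (16.7%) against 3.05% of all genes, and in Uqcrc1 it lies just after the start: ctccgctctGCGCATGCGCagcgcgg (chr9:108936669-108936694, plus strand, capitals marking the core on both strands). The ETS-family motif CCGGAAG was in 16 (24.2%) against 9.93%, and the YY1 motif AAGATGGC in 10 (15.2%) against 3.19%. TGACGTCA was in 5 (7.58%) against 2.03%, while CCAAT was in 28 (42.4%) against 41.1%. Between the hairpin libraries, the 11 measured members with the NRF1 core had a median difference of 0.29 and the 54 without it 0.35. For CCAAT the medians were 0.18 with (28 members) and 0.41 without (37 members), for CCGGAAG 0.29 (16) and 0.34 (49), and for AAGATGGC 0.21 (10) and 0.34 (55). TGACGTCA went the other way, with 0.74 over the 5 members that hold it and 0.33 over the 60 without. A match is a description of letters, and no use of a site was measured.

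**Figure D1:**
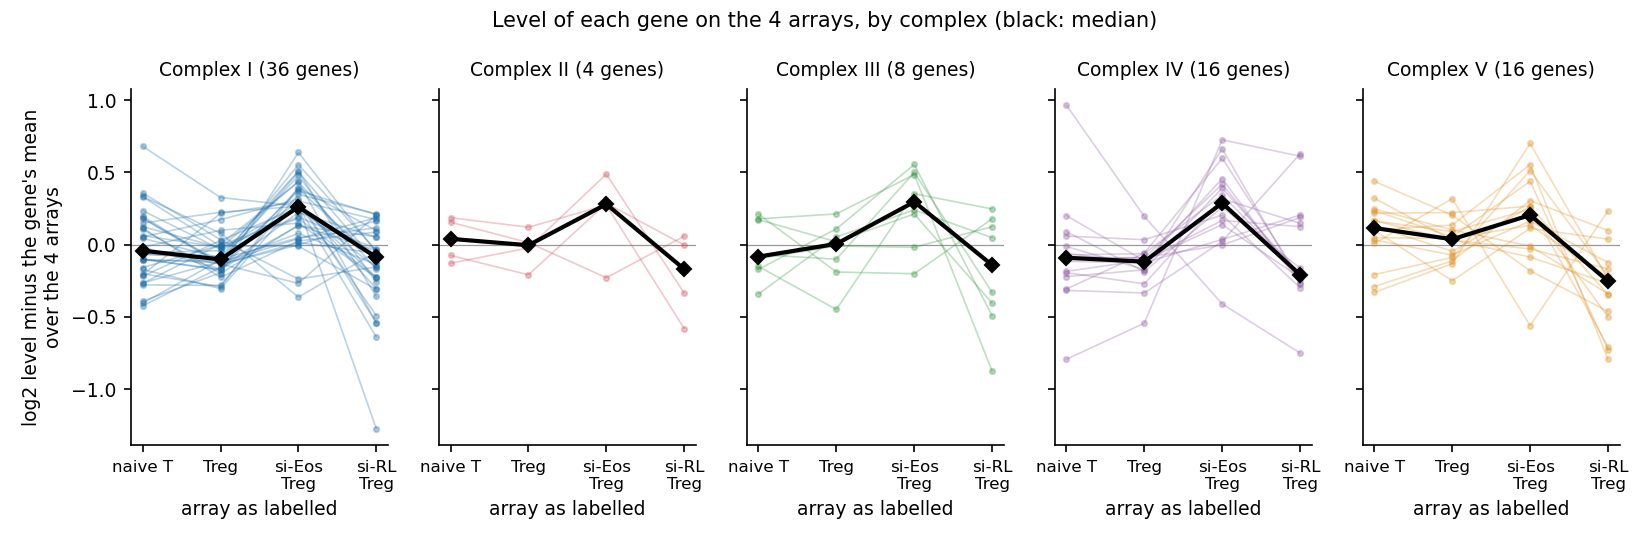
Log2 level of each gene minus its own mean over the 4 arrays (vertical axis), for the 4 arrays as labelled (horizontal axis), in 1 panel per complex; thin lines are genes and black diamonds are medians. The si-Eos-labelled library has the highest median in all 5 panels and the si-RL-labelled library the lowest in complexes II, III, IV and V, on 75th-percentile scaling.

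Across the 4 arrays the members differed little. The median gap between a member's highest and lowest array was 0.61 on the log2 scale, against 0.87 for all 16499 genes above background on all arrays, and 10 of 81 members (12.3%) spanned 2-fold or more, against 41.5%. The narrowest spans were those of Ndufb4 (0.22), an accessory subunit of complex I, and Uqcrb (0.22), a small subunit of complex III. The widest was that of Ndufb5, an accessory subunit of complex I, at 1.96. With arrays scaled to the 75th percentile, the si-Eos-labelled library held the highest level for 57 of 81 members, against 33.0% of all genes. Treg held it for 1, against 15.1%. The si-RL-labelled library held the lowest level for 41 members, against 29.8% of all genes. This order depended on the scaling. On spike-in scaling, 45 members read lower in the si-Eos-labelled library than in Treg and 36 higher. For the si-RL-labelled library these counts were 75 and 6. Treg read higher than naive T for 67 members and lower for 14. The highest and lowest arrays were not counted on that scaling.

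Fresh Treg and naive T cells differed little for the oxidative phosphorylation genes on 75th-percentile scaling. No member was 2-fold apart (0 of 81), where 7.55% of the 17653 measured genes were (5.51% higher, 2.04% lower). The members' median difference, Treg minus naive T, was -0.07, with an interquartile range of 0.25. All genes had a median of -0.02 and a range of 0.48. Among the 1672 genes in the interquartile range of the members' mean levels, the median was -0.09. By complex the medians were -0.07 for I, -0.10 for II, 0.00 for III, -0.01 for IV and -0.09 for V, which lie within 0.10 of each other and within the scanner error. Only 28 of 81 differences were larger than their own error. The sign of the members' median is not settled. It was 0.03 on quantile normalization and 0.21 when arrays were scaled on the spike-in probes. It was -0.27 on scaling to the median probe and -0.46 with normexp background correction (-0.67 relative to all genes). Under that correction 74 of 81 members lay below 0. With 1 background value per array, normexp gave -0.04.

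The largest difference between Treg and naive T was that of Cox7a2l, a factor that links complexes III and IV into supercomplexes. Its level reached 4.99 in naive T and 4.22 in Treg, but 3.61 in the si-Eos-labelled library and 3.27 in the si-RL-labelled library, so that naive T cells were the highest and both hairpin libraries lay below both fresh samples. Treg minus naive T was -0.77 ± 0.20. In complex I the extremes were Ndufa12l (0.42), Ndufb8 (0.30), Ndufb5 (-0.36) and Ndufs1 (-0.34), the last a core iron-sulphur subunit. In complex III they were Uqcr (0.40), Uqcrc1 (0.28), Uqcrh (-0.40), a small hinge protein, and Uqcrfs1 (-0.30), the Rieske iron-sulphur protein. In complex IV, Cox4i1 (-0.31) and Cox8a (-0.28) were the lowest of the subunits, and in complex V, Atp5s (0.31), which encodes no subunit, and Atp5l (-0.35) marked the ends, with Atp5d (0.20) the highest subunit. All 4 genes of complex II lay between -0.14 (Sdha, the flavoprotein that oxidises succinate) and 0.11 (Sdhb, its iron-sulphur partner).

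**Figure D2:**
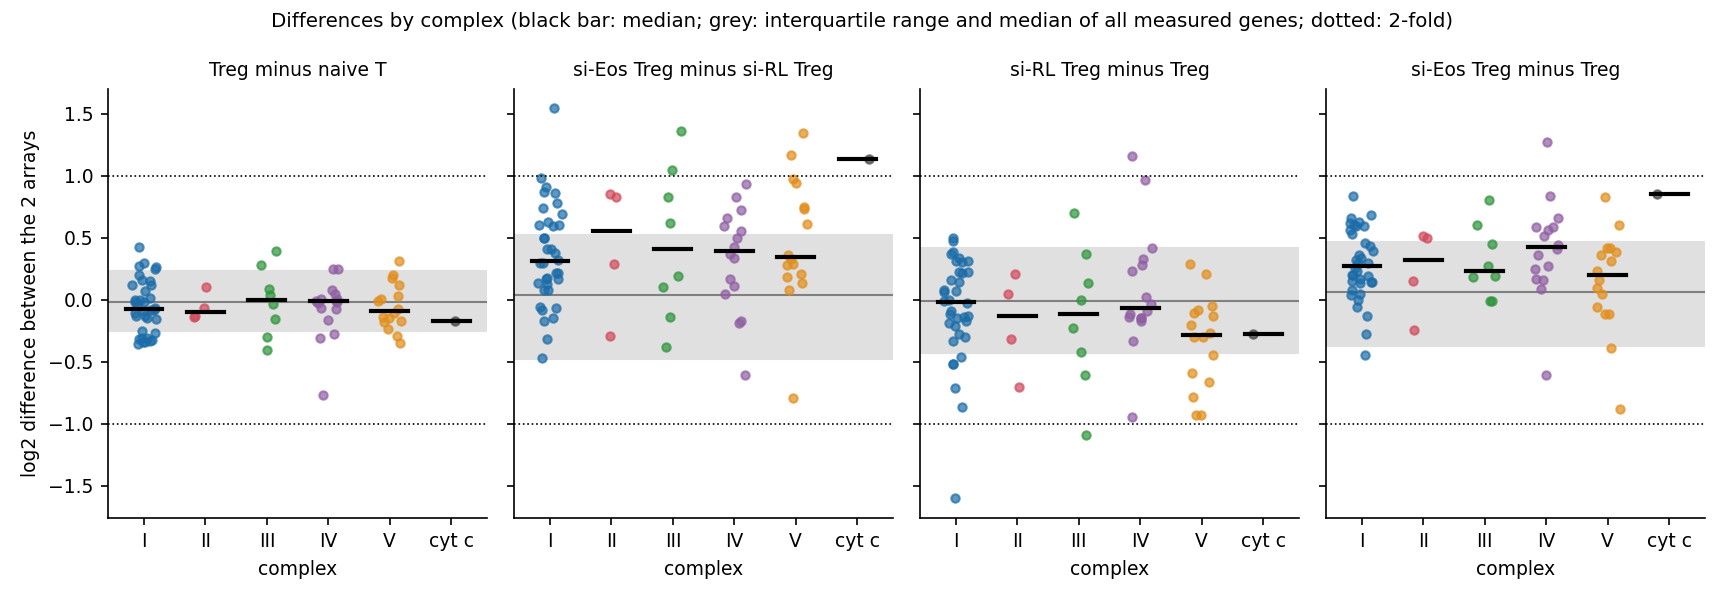
Log2 differences (vertical axis) of the members by complex (horizontal axis, cyt c being Cycs) in the 4 comparisons; points are genes, black bars medians, the grey band the interquartile range of all measured genes with their median as a line, and dotted lines 2-fold. Between the hairpin libraries the median of each complex lies between 0.31 and 0.56, above the 0.04 of all genes. Against Treg, the signs of the medians turn with spike-in scaling or normexp background correction on local background values. That of complex IV for the si-Eos-labelled library did not, and stayed between 0.09 and 0.76. With 1 background value per array, normexp left the signs of the members' medians against Treg (-0.19 for the si-RL-labelled library, 0.22 for the si-Eos-labelled library).

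Between the hairpin libraries, the oxidative phosphorylation genes read higher in the si-Eos-labelled library as a broad, small difference. Of 81 members, 67 lay above 0, with a median of 0.36, where 52.3% of 17140 measured genes lay above 0 with a median of 0.04. At the members' own brightness, among the 1672 genes in the interquartile range of their mean levels, the median was 0.14. Only 6 members were 2-fold or more higher and none was 2-fold lower among the members, while 20.9% of all measured genes were 2-fold apart, 10.7% higher and 10.2% lower. The members' median kept its sign over all alternatives tried, between 0.20 and 0.43. All 5 complexes had positive medians: 0.31 for I, 0.56 for II, 0.41 for III, 0.40 for IV and 0.35 for V. That of complex III fell to 0.15 when all probes of a gene were averaged, and over 10 alternatives the lowest median of another complex was 0.17, that of complex I. They differed from each other by up to 0.25, close to the scanner error of 1 gene.

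The same libraries differed in cell type markers. Besides the Treg and naive T markers given above, the 5 markers of CD8 T and NK cells summed to 4.10 in naive T, 3.46 in Treg, 70.2 in the si-Eos-labelled library and 6.69 in the si-RL-labelled library. Gzmb (granzyme B) gave signals of 27.1, 112, 21650 and 1197 in the same order and Cd8b1, a chain of the CD8 co-receptor, 1162, 1139, 761 and 500.0, so Gzmb made up most of the sum in the hairpin libraries and Cd8b1 in the fresh samples. As a difference of levels between the hairpin libraries, Gzmb read 3.89, Cd8a 0.38, Cd8b1 0.32 and Klrb1c -0.66. The sum therefore followed Gzmb and not the list as a whole. B cell markers summed to 1.03 to 2.60 and the 4 myeloid markers found to 0.79 to 1.45 on every array, and the NK cell receptor gene Ncr1 was not well above background in either hairpin library. The part of these marker differences in the members' values was not tested.

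The 6 members that reached 2-fold come from complexes I, III and V and cytochrome c. Ndufb5 had levels of 1.32 in naive T, 0.97 in Treg, 0.91 in the si-Eos-labelled library and -0.64 in the si-RL-labelled library, a hairpin difference of 1.54 ± 0.20 (2.91-fold). The si-RL-labelled library alone was low, and the other arrays lay close together. Its probe lies at chr3:32942863-32942922 (mm8), and whether that is coding sequence or UTR was not analysed here, for this and the other probes.

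Cyc1, the cytochrome c1 that hands electrons from complex III to cytochrome c, had levels of 2.71, 2.75, 3.02 and 1.66 in the same order of arrays, and a difference of 1.36 ± 0.20 (2.57-fold; probe at chr15:76172763-76172822, mm8). Cycs, cytochrome c itself, had levels of 4.27, 4.10, 4.95 and 3.82 and a difference of 1.13 ± 0.20 (probe at chr6:50494842-50494901, mm8). Uqcrc1, a core protein of complex III, had levels of 3.31, 3.59, 4.03 and 2.98 and a difference of 1.05 ± 0.20 (probe at chr9:108806516-108806575, mm8). On the probes used, the si-RL-labelled library was the lowest array for all 3 and the si-Eos-labelled library the highest, the latter lying 0.27 above Treg for Cyc1 and 0.85 above it for Cycs. On the 2 other Cycs probes, the si-RL-labelled library was again the lowest, but naive T was the highest and the si-Eos-labelled library lay -0.01 and 0.14 from Treg.

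Atp5a1 and Atp5b encode the α and β subunits of the catalytic F1 head of ATP synthase. Atp5a1 had levels of 5.87 in naive T, 5.90 in Treg, 6.32 in the si-Eos-labelled library and 4.97 in the si-RL-labelled library, a difference of 1.35 ± 0.20. Atp5b had levels of 6.62, 6.44, 6.83 and 5.66 and a difference of 1.17 ± 0.20 (probe at chr10:127493148-127493207, mm8). Both were lowest in the si-RL-labelled library on the probes used. On 1 other Atp5b probe, that library lay 0.16 above Treg and naive T was the lowest. A further Atp5b probe read -1.09 for the si-RL-labelled library minus Treg. Each of the 6 stayed positive over 7 alternatives of scaling, background and probe averaging, the lowest value being 0.91 for Uqcrc1. Other probes of the same genes gave 1.03 for Atp5a1, 1.59 for Uqcrc1, 0.77 and 0.94 for Cycs, and 1.53 and 0.40 for Atp5b, so the size depended on the probe for all 4 genes.

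**Figure D3:**
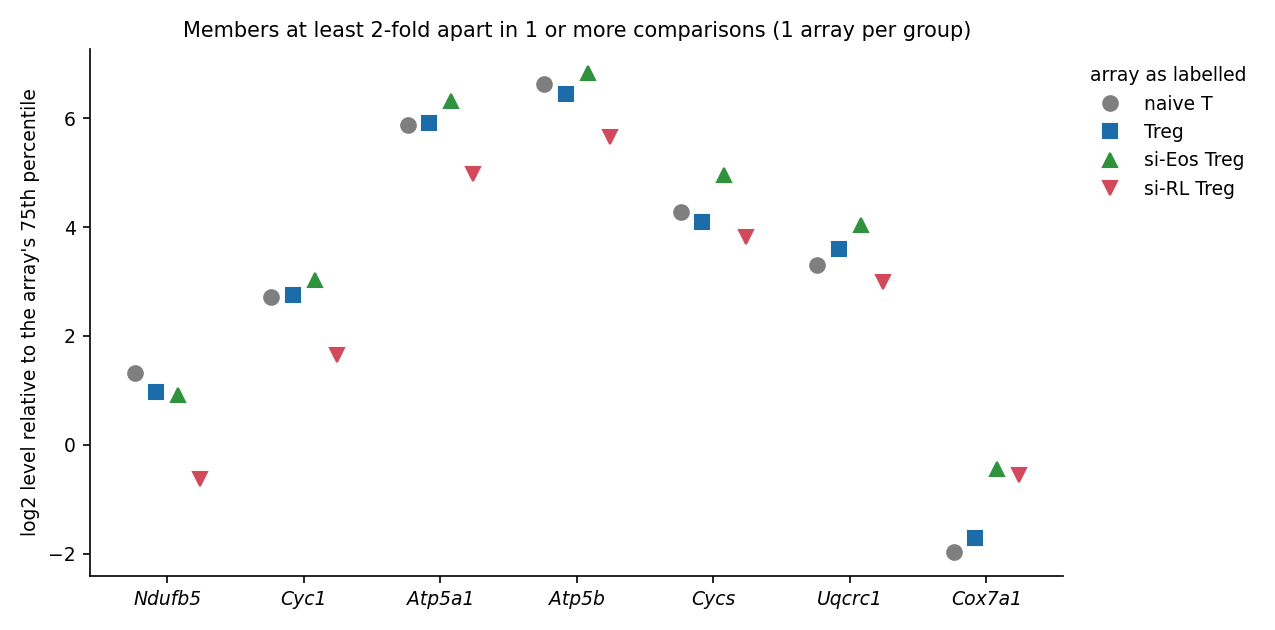
Log2 level relative to the array's 75th percentile (vertical axis) of the 7 members at least 2-fold apart in 1 or more comparisons, 1 symbol per array as labelled and 1 array per group. On the probes used, the si-RL-labelled library is the lowest for Ndufb5, Cyc1, Atp5a1, Atp5b, Cycs and Uqcrc1. For Cox7a1 both hairpin libraries lie above the fresh samples.

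Within complexes, the difference between the hairpin libraries followed the roles of the subunits unevenly. The 7 core subunits of complex I, which carry its flavin and iron-sulphur centres, had a median of 0.50 and were all above 0, while the 28 accessory subunits had a median of 0.20 with 21 above 0. Over 8 alternatives these medians ran from 0.33 to 0.56 and from 0.03 to 0.26. Among the core subunits, Ndufv1, which binds NADH, was the highest at 0.98 ± 0.20 and Ndufs7 the lowest at 0.22. Among the accessory subunits, Ndufa4 read 0.91, and Ndufa6 (-0.47), Ndufa3 (-0.31) and Ndufs6 (-0.17) were the lowest. Ndufa4 is named for complex I but is known as a subunit of complex IV, and counting it there moved the complex IV median from 0.40 to 0.42.

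Complex III split in the same way. Its 4 catalytic and core subunits (Cyc1, Uqcrfs1, Uqcrc1 and Uqcrc2) had a median of 0.83, and its 4 small subunits one of 0.03, whose sign turned on quantile normalization, on scaling to the detected probes and on averaging probes. Uqcrfs1 was the exception among the former, at 0.11 ± 0.20, and Uqcrq among the latter, at 0.83 ± 0.20. Uqcrh and Uqcrb read -0.38 and -0.14.

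In ATP synthase, the 5 subunits of the F1 head had a median of 0.94, but they fell apart: Atp5a1, Atp5b and Atp5d lay at 1.35, 1.17 and 0.94, while Atp5c1 and Atp5e lay at 0.14 and 0.18. The 3 genes that encode the same c subunit of the rotor ring gave 0.97 (Atp5g1), 0.33 (Atp5g2) and 0.73 (Atp5g3). The peripheral stalk had a median of 0.45 over 4 genes and the membrane subunits 0.29 over 3, and over 8 alternatives these fell as low as 0.16 and 0.08. Apart from Atp5s (-0.79), which encodes no subunit, all genes of complex V lay above 0 on the probes used, but a second RefSeq probe of Atp5h, nearly as bright, read -0.28 where the probe used read 0.28.

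In complex IV, the 10 general subunits had a median of 0.46. Cox5a was the highest at 0.93 ± 0.20, Cox7b followed at 0.66, and Cox6c (-0.19) and Cox6a1 (-0.17) were the only ones below 0. In complex II, Sdhc (a membrane anchor) and Sdhb read 0.86 and 0.82, Sdhd, the other anchor, 0.29, and Sdha -0.29. A second, dimmer RefSeq probe of Sdha read 0.24, so the sign for Sdha depended on the probe.

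**Figure D4:**
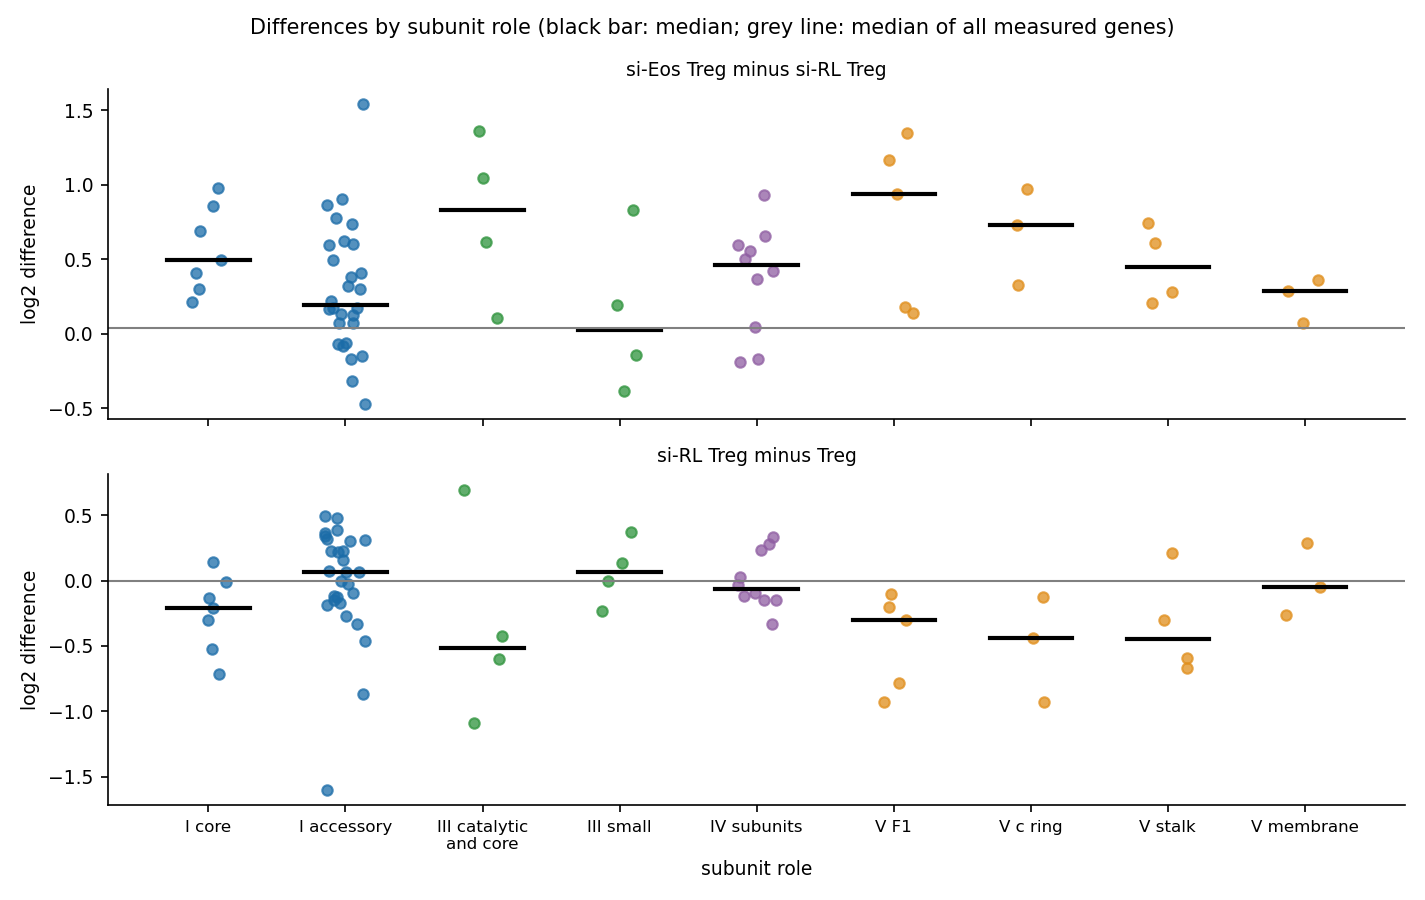
Log2 difference (vertical axis) of single genes (points) by the role of the subunit in its complex (horizontal axis), for the si-Eos-labelled library minus the si-RL-labelled library (top) and the si-RL-labelled library minus Treg (bottom); bars are medians and the grey line the median of all measured genes. In the top panel, core subunits of complex I and catalytic and core subunits of complex III have medians of 0.50 and 0.83. The accessory and small subunits of the same complexes have 0.20 and 0.03. Complex IV subunits have 0.46. In complex V the medians are 0.94 (F1 head, genes from 0.14 to 1.35), 0.73 (c ring), 0.45 (stalk) and 0.29 (membrane). In the bottom panel the sign of each group turns under at least 1 of 8 alternatives.

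Both hairpin libraries were also set against fresh Treg, and these comparisons share the Treg array. For the si-RL-labelled library minus Treg, the members' median was -0.12, with 30 of 81 above 0, against -0.01 for all genes. For all genes at the members' own brightness it was -0.002. One member was 2-fold higher and 2 were 2-fold lower, where 16.1% of 17141 genes were 2-fold apart (7.89% higher, 8.19% lower). For the si-Eos-labelled library minus Treg, the median was 0.29, with 68 of 81 above 0, against 0.06 for all genes. At the members' own brightness the median of all genes was 0.13, with 59.3% above 0. One member was 2-fold higher and none lower, where 18.9% of 17957 genes were apart (8.83% higher, 10.1% lower). These directions against Treg were not firm: the first turned to 0.36 with normexp background correction and the second to -0.04 with spike-in scaling, which moved the median of all genes to -0.41 and -0.28. Relative to all genes, the members were at -0.11 and 0.24 on 75th-percentile scaling and at 0.67 and 1.15 with normexp. The first therefore turned there too. That correction used local background values, 6 of which were above 200 on the Treg array. Normexp with 1 background value per array was an alternative chosen after seeing the data. It gave members' medians of -0.19 and 0.22 (-0.30 and 0.11 relative to all genes).

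The members that were 2-fold lower in the si-RL-labelled library than in Treg were Ndufb5 (-1.60 ± 0.20) and Cyc1 (-1.09 ± 0.20). Next came Atp5g1 (-0.93), Atp5a1 (-0.93), Ndufa4 (-0.86), Atp5b (-0.78), Ndufs8 (-0.72), a core iron-sulphur subunit of complex I, and Sdhc (-0.70). Cox7a2l, no subunit itself, read -0.95. In the si-Eos-labelled library the same genes differed from Treg by -0.06, 0.27, 0.04, 0.42, 0.04, 0.39, 0.14, 0.15 and -0.61. By role, the core of complex I had a median of -0.21 in the si-RL-labelled library and the accessory subunits 0.07. The catalytic and core subunits of complex III had -0.51 and the small ones 0.06. With normexp background correction the medians of these core groups turned to 0.22 and 0.06. With spike-in scaling those of the accessory and small groups turned to -0.34. With 1 background value per array, normexp turned the accessory median but not those of the core groups. In the si-RL-labelled library Uqcrfs1, at 0.70, went the other way from Cyc1 (-1.09), Uqcrc1 (-0.60) and Uqcrc2 (-0.43). In the si-Eos-labelled library all of these lay above Treg, Uqcrfs1 by 0.80, Cyc1 by 0.27, Uqcrc1 by 0.45 and Uqcrc2 by 0.19. Sdha, Sdhb and Sdhd read 0.04, -0.31 and 0.21 in the si-RL-labelled library and -0.24, 0.51 and 0.50 in the si-Eos-labelled library. The second Sdha probe read -0.74 in the former and -0.50 in the latter. Other Atp5b probes read -1.09 and 0.16 in the si-RL-labelled library and 0.44 and 0.56 in the si-Eos-labelled library.

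Cox7a1, an isoform of complex IV known from heart and skeletal muscle, was the 1 member above 2-fold in both hairpin libraries. Its levels were -1.97 in naive T, -1.72 in Treg, -0.45 in the si-Eos-labelled library and -0.56 in the si-RL-labelled library, so that both hairpin libraries lay above both fresh samples. The differences from Treg were 1.27 ± 0.21 and 1.16 ± 0.21, and over 7 alternatives they fell as low as 0.22 and 0.17. Its probe is placed at chr7:29894078-29894689 (mm8). Of the other isoforms, Cox6b2, known from testis, had levels of -0.78, -0.80, -0.44 and 0.17, with the si-RL-labelled library highest, 0.96 above Treg. Cox4i2 (-3.64, -3.71, -3.12 and -3.29) and Cox6a2 (-3.51, -3.58, -2.99 and -3.72) were well below the 75th percentile on every array.

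Other genes of mitochondrial energy metabolism gave the setting of these values. The 75 mitochondrial ribosomal protein genes, which serve translation of the mitochondrially encoded subunits, had a median of 0.44 between the hairpin libraries with 65 above 0, and 11 were 2-fold higher and 0 lower, against 10.7% and 10.2% of all measured genes, of which 52.3% lay above 0. They were led by Mrps6 (2.48 ± 0.20), Mrps27 (1.62) and Mrps22 (1.39). Of 13 citric acid cycle genes, 11 lay above 0, with a median of 0.53, and Suclg2, a subunit of succinyl-CoA ligase, was 2-fold lower (-1.12 ± 0.20). The 9 genes of ATP export, inhibition and uncoupling had a median of 0.70, among them the ADP/ATP carriers Slc25a5 (0.99) and Slc25a4 (0.92). These medians stayed positive over 8 alternatives. The 25 assembly factors had a median of 0.11, with none 2-fold apart. In Treg minus naive T, Atpif1, the inhibitor of ATP synthase, was 2-fold higher in Treg (1.11 ± 0.20), and none of the ribosomal, citric acid cycle, assembly or regulator genes was 2-fold apart.

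Regulators of mitochondrial gene expression did not read alike. Of 17, 1 was 2-fold higher in the si-Eos-labelled library than in the si-RL-labelled library (Pprc1, a coactivator of the PGC-1 family, 1.24 ± 0.20). Another such coactivator, Ppargc1b, was 2-fold lower (-1.40 ± 0.21). Of all measured genes, 10.7% were 2-fold higher and 10.2% lower. The median of the 17 regulators, 0.06, turned to -0.16 when probes were averaged. Nrf1, whose motif is marked above, read -0.34, and Tfam, which packages mitochondrial DNA, -0.42. Against Treg, Myc was higher in both hairpin libraries, by 2.08 in the si-RL-labelled library and 1.80 in the si-Eos-labelled library, and Gabpb1, a subunit of GABP, by 1.04 and 1.27. Yy1 was 1.02 higher in the si-RL-labelled library and 0.14 higher in the si-Eos-labelled library. Ppargc1b read 0.06 and -1.33. In the si-RL-labelled library 3 of 17 were 2-fold higher and 0 lower, against 7.89% and 8.19% of all measured genes. In the si-Eos-labelled library 2 were higher and 1 lower, against 8.83% and 10.1%.

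Glycolytic genes differed on another scale and, between the hairpin libraries, their median had the other sign. Of 18 glycolytic genes, 15 were 2-fold higher than Treg in the si-RL-labelled library (median 2.04) and 15 in the si-Eos-labelled library (median 1.75), against 7.89% and 8.83% of all measured genes, led in both by the lactate transporter Slc16a3 (4.42 and 3.89) and hexokinase Hk2 (3.72 and 3.81). Between the hairpin libraries their median was -0.36, with 13 of 18 below 0, and these medians kept their signs over 8 alternatives. There, 1 glycolytic gene was 2-fold higher (Pkm2, 1.09) and 1 lower (Slc2a3, -1.46), against 10.7% and 10.2% of all measured genes. Among the genes of pyruvate entry, Pdk1, the kinase that shuts off pyruvate dehydrogenase, was 3.81 ± 0.20 above Treg in the si-RL-labelled library, and the hairpin difference was -3.66 ± 0.20.

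**Figure D5:**
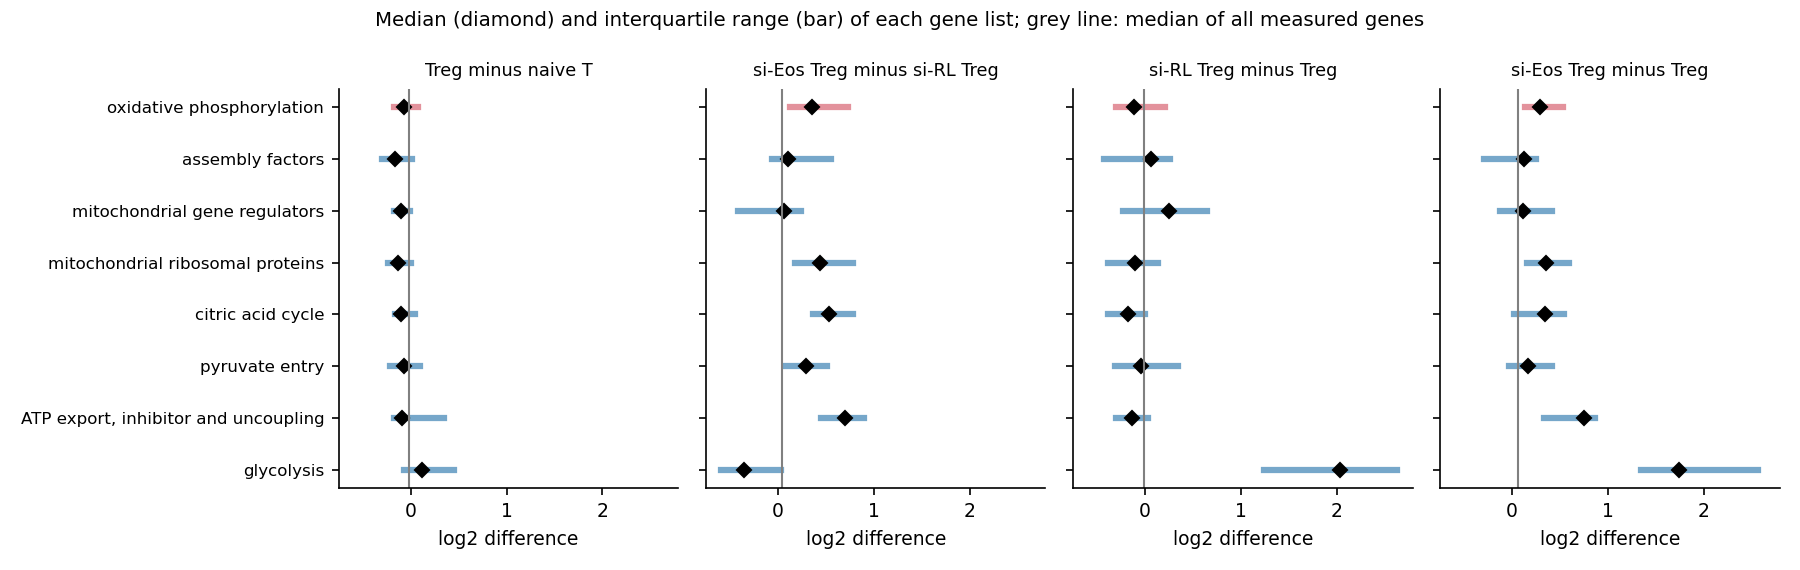
Log2 difference (horizontal axis) of each gene list (vertical axis) in the 4 comparisons; diamonds are medians, bars the interquartile range of the genes and the grey line the median of all measured genes. Glycolysis lies at 2.04 and 1.75 in the si-RL-labelled and si-Eos-labelled libraries against Treg, where the oxidative phosphorylation genes lie at -0.12 and 0.29. The signs of the latter turn with normexp background correction and with spike-in scaling, respectively. With 1 background value per array, normexp gave -0.19 and 0.22.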

How the data were processed

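Scanner files were deposited for 4 arrays on 1 slide in 1 scan. Each gives intensity per spot on a linear scale; the authors used Agilent Feature Extraction 9.5.3.1 with background subtraction and detrending, according to the headers, without normalization between arrays, and probes placed on mouse build mm8. RNA was amplified linearly before Cy3 labelling, per the labels' protocols. The deposited value table of the series repeats this intensity (median ratio 1.00, 100% of spots equal within 0.5%), with medians of 33.2 (naive T), 50.5 (Treg), 38.5 (si-Eos) and 31.5 (si-RL), hence on a linear, uncentred scale.

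From these, log2 intensity minus each array's 75th percentile over 41174 non-control probes was computed in Python 3.11.15 with pandas 2.3.3. Flagged outlier spots (71 to 94 per array) were left out, spots of 1 probe were averaged, no spot was saturated, and each gene was represented by its brightest probe, as 26 members had more than 1. Genes counted as measured in a comparison if well above background on both of its arrays. Because each group had 1 array, values, counts and medians are given without a test. The counting step was tested on simulated data. Alternatives covered scaling to the median, to detected probes or to spike-ins, quantile normalization, normexp background correction (limma 3.58.1, offset 50), the value table, probe averaging, no filter, flagged spots, membership and a 1.5-fold threshold. RefSeq accessions named 81 members. Of the members, those at least 2-fold apart are named, and otherwise the extremes of each complex, all of complex II, Cyc1, Cycs and the tissue isoforms; of other lists, up to 3 genes each way that were 2-fold apart, and a few regulators, carriers and subunits chosen after their values were seen. The members and lists were chosen with earlier results of these data known. Some listed genes are not reported here. The number of arrays limits the precision.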

Additional observations from a re-analysis of the deposited data

Results flagged for a closer look

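On 75th-percentile scaling the hairpin libraries lay on opposite sides of fresh Treg, but the difference was not tested, and both comparisons share the Treg array. The members' median was 0.29 for the si-Eos-labelled library minus Treg and -0.12 for the si-RL-labelled library minus Treg. Both medians were below 0 on spike-in scaling (-0.04 and -0.52) and both above 0 with normexp background correction (0.78 and 0.36). With 1 background value per array, normexp gave 0.22 and -0.19. The genes that follow were picked from the 6 members 2-fold apart between the hairpin libraries because they lay on opposite sides of Treg. Their opposite signs are thus a result of that choice. Atp5a1 gave 0.42 and -0.93, Atp5b 0.39 and -0.78, and Cyc1 0.27 and -1.09 in the same order. Cycs gave 0.85 and -0.28, and Uqcrc1 0.45 and -0.60. Ndufb5, the remaining one of the 6, lay below Treg in both, at -0.06 and -1.60. The other 2 Cycs probes gave -0.01 and 0.14 for the si-Eos-labelled library and -0.78 and -0.80 for the si-RL-labelled library. The other 2 Atp5b probes gave 0.44 and 0.56 for the former and -1.09 and 0.16 for the latter. Over 7 alternatives, Cyc1 in the si-Eos-labelled library ran from -0.06 to 0.76 and Cycs in the si-RL-labelled library from -0.68 to 0.24.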

How the results depend on the processing

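No paired analysis was possible because each group had 1 array. Of 232 alternative values of the members' medians and counts, 198 stayed within the scanner error or within 1.5 times, and 34 moved. Of 200 values of the complexes' medians, 36 moved. Some of the 198 could not move. Scaling by 1 factor per array leaves the members' median relative to all genes unchanged, and the value table repeats the same intensity. Counts of 0 below that leave out the 6 genes or the tissue isoforms were fixed in advance, as those genes made up the counts. Between the hairpin libraries the median stayed between 0.20 and 0.43; the 6 members 2-fold higher became 31, with 2 lower, at 1.5-fold, and 0 once those 6 were left out, and probe averaging gave 1 lower. For Treg minus naive T, the median was -0.27 on scaling to the median probe, 0.21 on spike-in scaling and -0.46 with normexp (relative to all genes, -0.67), with 1 member 2-fold lower under normexp and 1 at 1.5-fold. For the si-RL-labelled library minus Treg, spike-in scaling gave -0.52 (0 higher, 11 lower), normexp 0.36 (4 higher; 0.67 relative to all genes) and normexp with 1 background value per array 0 higher. That comparison had 2 higher on median scaling and on quantile normalization, 0 higher without tissue isoforms, 3 higher and 12 lower at 1.5-fold, and 0 lower without the 6 genes. For the si-Eos-labelled library minus Treg, spike-in scaling gave -0.042 (0 higher, 1 lower), normexp 0.78 (24 higher, 2 lower; 1.15 relative to all genes) and normexp with 1 background value 0 higher; without tissue isoforms there were 0 higher, and at 1.5-fold 17 higher and 2 lower. On the Treg array 6 local background values were above 200, the highest 23686; with 1 background value per array, an alternative chosen after seeing the data like the changes of membership to other names, RefSeq probes or without the 6, the 3 medians that involve Treg or naive T were -0.04, -0.19 and 0.22. Of all genes 2-fold apart, the share higher went from 73.0% to 55.4% (median scaling), 88.0% (spike-in) or 83.8% (normexp) for Treg minus naive T. For the si-RL-labelled library minus Treg it went from 49.1% to 16.7% (spike-in) or 17.7% (normexp), and for the si-Eos-labelled library minus Treg from 46.7% to 23.7% or 19.7%.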

Other observations

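Where a member had other probes, these differed by the kind of accession they were designed on. Between the hairpin libraries, 20 other probes with a RefSeq accession had a median difference of 0.35, and 2 had the opposite sign to the probe used. The 8 measured other probes with another accession had a median of -0.76, with 6 below 0 and 4 of opposite sign, while the probes used for the same genes had a median of 0.60. Examples are a transcript-model probe of Ndufb2 (-2.10, where the probe used gave -0.15), and cDNA-clone probes of Atp5j2 (-1.72 against 0.36), Ndufb8 (-1.17 against 0.60) and Uqcrq (-0.87 against 0.83). These probes were far dimmer than those used: the Ndufb2 probe had signals of 15.3 and 53.6 in the si-Eos-labelled and si-RL-labelled libraries against 3215 and 2916, the Atp5j2 probe 34.5 and 92.9 against 7607 and 4857, and the Uqcrq probe 27.7 and 41.7 against 14841 and 6833. Over all genes, 1709 such probes had a median of -0.45, with 38.5% of opposite sign, and 5088 other RefSeq probes had -0.04, with 26.5%. Which transcripts these probes read was not analysed here.

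Probes named for mitochondrially encoded subunits did not read alike. CYTB, the cytochrome b of complex III, differed by 1.21 ± 0.20 between the hairpin libraries and by -1.91 ± 0.20 for the si-RL-labelled library minus Treg. ND4L, a subunit of complex I, gave 0.01 and -0.40, and COX2, a subunit of complex IV, 0.06 and 0.00, although the file places the COX2 probe on chromosome 1. Nuclear subunits that the naming rule missed gave 0.71 (Ndufab1), 0.34 (Uqcr10), 0.35 (Atp5md), 0.01 (Atp5mpl) and -0.16 (Ndufv3) between the hairpin libraries.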
